A study of Mus musculus with 15 samples.

Results

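Crosslink sites of tristetraprolin (TTP) that lay outside every annotated gene of the mouse genome were examined. A site was a member when its nucleotide fell in no gene span on either strand (mm10, GENCODE M21) and not within 5000 nt downstream of a protein-coding 3′UTR end on its own strand. The ribosomal RNA locus on chromosome 17, which covers the genes Gm26917 and Gm42418, and the mitochondrial chromosome were left out. The rule kept 21389 of 123142 distinct positions over all lists. Individual-nucleotide resolution crosslinking and immunoprecipitation (iCLIP) had been done on immortalised bone marrow-derived macrophages of TTP-knockout C57BL/6 mice that carried a doxycycline-inducible GFP-TTP or GFP-TTP-AA. TTP-AA has alanines in place of the serines that the kinase MK2 phosphorylates in the wild type. All cells received doxycycline for 6 h, and lipopolysaccharide (LPS) for 0 h, 1 h or 4 h. The 15 libraries were TTP at 0 h (n = 2), 1 h (n = 4) and 4 h (n = 2) and TTP-AA at 0 h (n = 2), 1 h (n = 3) and 4 h (n = 2). The cells were immortalised lines that made a tagged protein from a transgene, and GFP-only libraries were not analysed here. The libraries of a group were summed into 1 list, so each group had 1 value and no comparison could be tested against replicate error. Intervals given are 95% intervals for counting error only and compare pooled lists, not conditions.

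TTP is a zinc finger protein that binds AU-rich elements in the 3′UTRs of cytokine and other mRNAs and recruits the deadenylation machinery. Phosphorylation by MK2 after LPS lowers this activity. Intergenic sites hold a mixture of RNAs that a gene annotation of long transcripts leaves out. Transfer RNA genes are short and are transcribed by RNA polymerase III, and processed pseudogenes are copies of mRNAs that were inserted elsewhere in the genome. In iCLIP a site is the nucleotide next to the end of a cDNA, where reverse transcription stopped, and its value is the number of unique cDNAs that end there.

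The lists held between 19167 and 174397 cDNAs in all. The intergenic sites numbered 5924 with 12426 cDNAs for TTP at 0 h and 5913 with 11633 cDNAs for TTP-AA at 0 h. At 1 h there were 7146 sites with 33843 cDNAs for TTP and 9387 sites with 32111 cDNAs for TTP-AA. At 4 h there were 3110 sites with 10744 cDNAs for TTP and 4756 sites with 8861 cDNAs for TTP-AA. Sites of all lists within 15 nt of one another on 1 strand were joined, which gave 6223 intergenic clusters.

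The sites were far from genes only in part. The median distance to the nearest gene on either strand ranged from 7765 nt to 11708 nt over the lists. Between 29.9% and 38.6% of sites lay within 5000 nt of a gene, since the rule set a distance only for the side downstream of coding 3′UTRs. Per length of such sequence, sites were most frequent within 100 nt of a gene, with 40.1 sites per Mb for TTP-AA at 1 h against 1.55 per Mb beyond 100000 nt. A total of 278 clusters lay within 100 nt of a gene, and the gene was a pseudogene for 146 of these, a protein-coding gene for 77, a small RNA gene for 40 and a long non-coding gene for 15. Of the 146 beside pseudogenes, 121 followed the end of a pseudogene on the same strand. Around the limit of the rule, the lists held 26 to 94 sites in the first 1000 nt beyond 5000 nt downstream of a 3′UTR, which were members. In the last 1000 nt before that limit they held 21 to 79 sites, which were not.

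Genomic sequence was at hand where a cluster fell inside a RefSeq promoter window, from 250 nt before to 50 nt after a gene start (GRCm38.p6), which was the case with full flanks for 79 clusters. The windows around the 7 of these with most cDNAs are shown to give an impression of the bound sequence. They were chosen after their values were seen. Each is 29 nt long, 5′ to 3′ on the strand of the sites, and capitals mark nucleotides that held a site in at least 1 list.
n-TTagt9, threonine tRNA, chr7:35234796-35234824, minus: ttaaagcgcctgtcTAGTAAACaggAgAt
near Elovl7, chr13:108214324-108214352, minus: cccgcgcgtcacCCGggaccgccccccgg
near Evc, chr5:37336890-37336918, minus: gaaaggctgaaagTTTggggcggcgggtc
near Tox3, chr8:90348396-90348424, plus: gccgctccccctCCTGCcgccgccggtcc
near Ypel2, chr11:86993912-86993940, plus: acccccacccgcCCCTcggccctggcggg
near Pdzd8, chr19:59345828-59345856, minus: ggctctgtggggAGGCGccgttcccgccc
n-TAagc16, alanine tRNA, chr13:21222607-21222635, plus: agcgcgtgcttagcATGcacgaggcCccg
The pair of tRNA windows is described with the tRNA genes. In the other 5, sites covered 3 to 5 neighbouring nucleotides. The sites near Elovl7, Tox3 and Ypel2 lay on the strand opposite to the gene, and those near Evc and Pdzd8 lay on its strand. The cluster near Ypel2 fell in the span of the RefSeq long non-coding RNA Gm51915. The cluster 64 nt from Elovl7, which encodes a fatty acid elongase, held 45 TTP cDNAs and 12 TTP-AA cDNAs at 1 h and none at the other times. Near Evc, a gene of primary cilium signalling, the lists held 7, 22 and 3 cDNAs for TTP at 0 h, 1 h and 4 h, and 0, 23 and 0 for TTP-AA. Over the 79 windows the median GC content was 72.4%, against 51.7% for windows of 29 nt across all 32817 promoters in the table, and 61 of the 79 were above the latter. AUUUA, the core of AU-rich elements (searched as ATTTA on the strand of the site), was present within 20 nt of 1 of 96 such sites for TTP at 1 h, or 1.04% (0.184 to 5.67%). For TTP-AA at 1 h it was near 2 of 87 sites, or 2.30% (0.633 to 7.999%), and 3.18% of all promoter windows of that length on both strands held it. These sites are a small and promoter-near subset, and the intervals include the share of all promoters.

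Intergenic sites held 37.0% (36.5 to 37.5%) of the cDNAs of TTP at 0 h and 35.7% (35.1 to 36.2%) of those of TTP-AA. At 1 h the share was 34.1% (33.8 to 34.4%) for TTP and 18.4% (18.2 to 18.6%) for TTP-AA, and the mutant list was -15.7 percentage points from the wild-type list (-16.0 to -15.3). At 4 h it was 37.0% (36.4 to 37.5%) for TTP and 46.2% (45.5 to 46.9%) for TTP-AA, 9.26 points apart (8.36 to 10.2). The 0 h lists differed by -1.33 points (-2.06 to -0.598). On whole lists the share thus lay between 34.1% and 37.0% in all 3 TTP lists and between 18.4% and 46.2% in the TTP-AA lists. The ribosomal RNA locus, which is part of the denominator, itself took 28.7% of the cDNAs for TTP and 10.5% for TTP-AA after 1 h, and 32.1% and 13.1% at 4 h. With that locus and the mitochondrial chromosome out of the denominator, the 1 h difference was -28.1 points and the 4 h difference turned to -1.54 points (-2.57 to -0.513). The sign at 4 h therefore depended on whether the locus was counted.

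**Figure D1:**
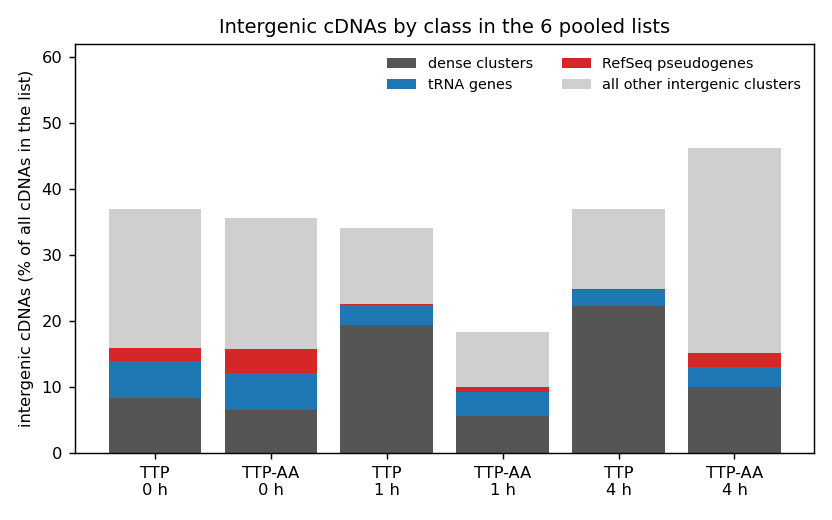
Intergenic cDNAs as a percentage of all cDNAs of each pooled list, stacked by class, with 1 bar per list. The bars are between 34.1 and 37.0% high in the TTP lists and reach 18.4% at 1 h and 46.2% at 4 h for TTP-AA, and the dark part (clusters with sites at most of their nucleotides) makes up 19.4% of the TTP list at 1 h.

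Few clusters carried most of the cDNAs. Of the 6223 clusters, 3901 were found in 1 list and held 8.98% of the cDNAs, whereas 207 were found in all 6 lists and held 57.8%. The 10 largest clusters of a list took 35.6% of its intergenic cDNAs for TTP at 1 h and 37.2% at 4 h. In the other 4 lists they took 11.8%, 13.5%, 14.03% and 21.1%, the last for TTP-AA at 1 h. In TTP-AA at 4 h, 18.7% of the intergenic cDNAs lay in clusters that no other list held, against 4.79% to 14.8% in the other lists. Shares of clusters found in 1 list were not computed for all clusters of the genome.

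The 3 largest clusters had sites at 85.4% to 92.3% of their nucleotides. The first was at chr11:109011739-109012118 on the minus strand, in the span of the RefSeq lncRNA Gm36876 and 54866 nt from the nearest same-strand gene, Gm24149, and 328 of its 380 nucleotides held a site. It held 362, 4361 and 1142 cDNAs for TTP at 0 h, 1 h and 4 h and 359, 2197 and 321 for TTP-AA. Scaled to the cDNAs of the lists, TTP-AA over TTP was 1.02 at 0 h, 0.287 (0.272 to 0.302) at 1 h and 0.426 at 4 h. This cluster alone made up 12.9% of the intergenic cDNAs of TTP at 1 h. The second, at chr3:5860614-5860808 on the plus strand and 20233 nt before Gm25352, held 2487 TTP cDNAs and 1435 TTP-AA cDNAs at 1 h, and the ratio was 0.328 (0.308 to 0.351). At chr6:3201450-3201572 on the plus strand, 6297 nt before the pseudogene Gm2651, the counts were 1179 and 675, a ratio of 0.326 (0.296 to 0.359). These 3 clusters were among the 5 largest of every list.

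Another large cluster had a similar ratio at 1 h. At chr8:3754431-3754493 on the minus strand, 5447 nt before Cd209a, which encodes a C-type lectin of dendritic cells and macrophages, TTP had 586 cDNAs and TTP-AA 341, a ratio of 0.331 (0.289 to 0.379). A lower ratio of 0.146 (0.125 to 0.169) was found at chr2:90395150-90395198 on the minus strand, 11989 nt before Gm13767, with 876 cDNAs for TTP and 224 for TTP-AA. One cluster was largest at 4 h instead, at chr16:17222350-17222390 on the plus strand and 8368 nt after Rimbp3. It held 95, 114 and 555 cDNAs for TTP at 0 h, 1 h and 4 h and 30, 69 and 67 for TTP-AA. In the opposite direction at 4 h, the cluster at chr11:62240498-62240505 on the minus strand, 26719 nt after Zswim7, had 56 cDNAs for TTP and 135 for TTP-AA, after 17 and 10 at 1 h.

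After these values were seen, clusters with at least 20 sites that covered at least 50% of their nucleotides were set apart from the rest, leaving out tRNA genes and pseudogenes. There were 71 such dense clusters with a median width of 43 nt, and 57 of them were found in all 6 lists. They held 22.9%, 56.9% and 60.4% of the intergenic cDNAs of TTP at 0 h, 1 h and 4 h, and 18.6%, 31.1% and 21.7% of those of TTP-AA. Since many cDNAs make many sites, their high counts are a result of the choice. At 1 h they held 19245 TTP cDNAs and 10002 TTP-AA cDNAs, so the choice may also favour ratios below 1. TTP-AA over TTP for their sum was 0.783 (0.740 to 0.829) at 0 h, 0.296 (0.289 to 0.303) at 1 h and 0.449 (0.427 to 0.473) at 4 h. At 1 h, 2 of 70 with enough cDNAs were above 1. Dense clusters in tRNA genes, left out here, went the other way at 1 h. Of these, 16 of 18 were above 1, with 1.21 (1.13 to 1.28) for their sum. So did dense clusters in pseudogenes, with 5 of 5 above 1 and 2.50 (1.75 to 3.63) for their sum. TTP-AA over TTP for the ribosomal RNA locus, which is no member, was 0.758 (0.726 to 0.791), 0.365 (0.359 to 0.372) and 0.407 (0.390 to 0.426) at 0 h, 1 h and 4 h. The 71 dense clusters thus moved with the share of that locus across the lists, and its part in their counts was not tested. The remaining 5636 clusters outside tRNA genes and pseudogenes, with a median width of 3 nt, had ratios of 0.948 (0.917 to 0.981), 0.734 (0.717 to 0.753) and 2.56 (2.46 to 2.67). The larger share of TTP-AA at 4 h lay in these, with 30.97% of the list against 12.1% for TTP.

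**Figure D2:**
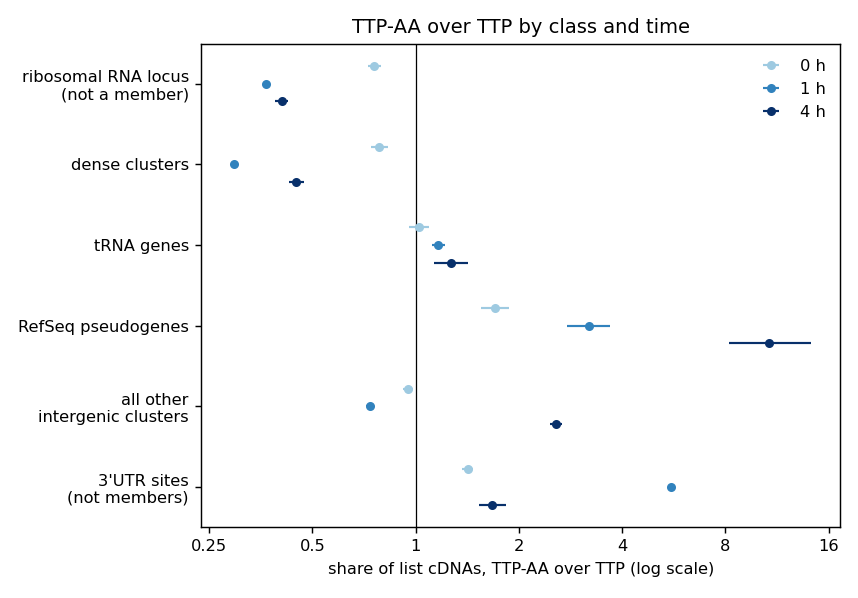
Share of list cDNAs, TTP-AA over TTP, for classes of intergenic clusters and 2 comparison sets that are not members, on a log axis. Points are the ratio of the pooled lists at 0 h, 1 h and 4 h, bars are 95% counting intervals, and the dense clusters (0.296 at 1 h) lie near the ribosomal RNA locus (0.365) while pseudogenes (3.19) and 3′UTR sites (5.57) lie above 1.

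The best-defined class was tRNA genes. RefSeq lists 408 nuclear tRNA genes, of which 330 lay outside GENCODE gene spans, and 175 of these 330 held intergenic sites. In each of the 176 tRNA genes with sites, counting 1 that overlaps a gene span in part, all sites lay on a single strand. Clusters in tRNA genes numbered 185 and made up 14.8%, 9.02% and 6.37% of the intergenic cDNAs of TTP at 0 h, 1 h and 4 h, and 15.7%, 19.4% and 6.46% of those of TTP-AA. As a share of the whole list, TTP-AA over TTP was 1.02 (0.959 to 1.09) at 0 h, 1.16 (1.11 to 1.22) at 1 h and 1.27 (1.13 to 1.42) at 4 h. The direction at 1 h was set by the denominator. The ratio was 2.15 (2.06 to 2.25) relative to the intergenic cDNAs, and 0.915 (0.877 to 0.956) relative to lists without the ribosomal RNA locus and the mitochondrial chromosome. Counting each site once, it was 0.495 (0.451 to 0.543).

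The tRNA gene with most cDNAs was n-TAtgc10, an alanine tRNA gene with anticodon TGC at chr5:125404250-125404321. It held 195, 341 and 65 cDNAs for TTP at 0 h, 1 h and 4 h and 119, 427 and 45 for TTP-AA. TTP-AA over TTP was 0.713 (0.617 to 0.824) at 1 h. For the asparagine tRNA gene n-TNgtt9, at chr2:18587044-18587117, the counts were 64, 196 and 57 for TTP and 68, 474 and 23 for TTP-AA. Its ratio at 1 h was 1.38 (1.16 to 1.63), and this interval does not overlap that of the alanine gene. The aspartate tRNA gene n-TDgtc16, at chr10:91182097-91182168, held 161 TTP cDNAs and 305 TTP-AA cDNAs at 1 h, and its cluster gave a ratio of 1.08 (0.889 to 1.31). That interval includes 1. The 10 tRNA genes with most cDNAs held 40.02% of all tRNA cDNAs.

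Within tRNA genes the sites were concentrated at few positions. Positions were counted from 1 at the first nucleotide of the RefSeq gene, and the range was chosen after the profile was seen. Positions 31 to 40 held 55.9% (55.1 to 56.8%) of the 14219 tRNA cDNAs, and positions 1 to 30 held 3.78%. In the 138 genes of at most 76 nt the share at positions 31 to 40 was 76.1% (75.3 to 76.97%), and position 36 alone held 27.0%. Of 72 such genes with at least 20 cDNAs, 63 had their most frequent site in this range. In n-TAtgc10, 703 of 1192 cDNAs lay at position 36. The 38 longer genes, mostly of leucine, serine, tyrosine and isoleucine tRNAs, which have a long variable arm or an intron in many cases, held 7.57% (6.81 to 8.41%) of their cDNAs there. Their sites were spread over later positions, and the most frequent, position 67, held 12.0% of cDNAs. Over all tRNA genes, positions 31 to 40 held 59.97%, 60.96% and 66.6% for TTP at 0 h, 1 h and 4 h, and 50.98%, 50.7% and 77.1% for TTP-AA.

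**Figure D3:**
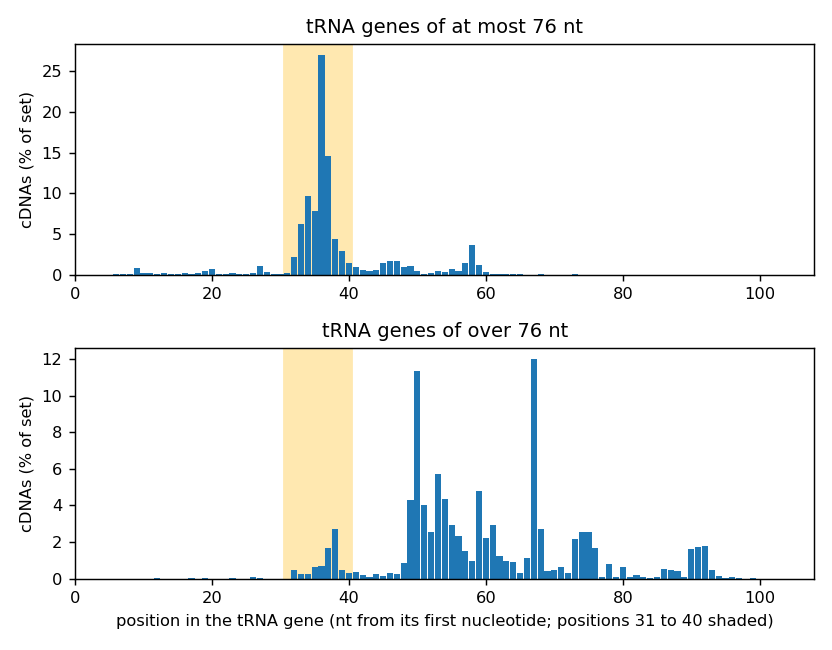
Share of tRNA cDNAs at each position of the gene, over all 6 lists, for 138 genes of at most 76 nt (top) and 38 longer genes (bottom), with positions 31 to 40 shaded. In the shorter genes 76.1% of cDNAs lie in the shaded range with a maximum at position 36, and in the longer genes 7.57% do.

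Sequence was at hand for 6 tRNA genes with sites that overlapped a promoter window, and in 4 of them the anticodon could be placed. These sequences are shown because they place the favoured positions relative to the anticodon, which is in capitals.
n-TTagt9, chr7:35234794-35234822, minus: aaagcgcctgtctAGTaaacaggagatcc
n-TAagc16, chr13:21222605-21222633, plus: agagcgcgtgcttAGCatgcacgaggccc
n-TLaag4, chr7:120917538-120917566, plus: aaggcgctggattAAGgctccagtctctt
n-TNgtt6, chr1:171033969-171033994, minus: agcgcgttcggctGTTaaccgaaagg
The anticodon lay at positions 35 to 37 in n-TTagt9, n-TLaag4 and n-TNgtt6 and at 33 to 35 in n-TAagc16. The most frequent site was position 34 in n-TTagt9, with 26 of 59 cDNAs, and position 36 in n-TAagc16, with 25 of 35. Both are next to the anticodon in the anticodon loop. In n-TLaag4, which is 82 nt long, it was position 67, with 8 of 11 cDNAs. The lists do not tell whether reverse transcription stopped at a crosslink or for another reason, so these cannot be told apart.

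All 20 amino acids were represented among the tRNA genes with sites. Alanine tRNA genes held 22% of the tRNA cDNAs, and together with aspartate, leucine, serine and asparagine they held 62.4%. Cysteine tRNA genes were the most numerous, with 50 genes outside gene spans, but 2 of all cysteine genes held sites, with 55 cDNAs in all. At 1 h the alanine genes had 827 cDNAs for TTP and 1240 for TTP-AA, a ratio of 0.853 (0.781 to 0.933). Single alanine genes lay on both sides of 1, such as n-TAtgc11 at 0.625 (0.466 to 0.838) and n-TAagc15 at 1.76 (1.18 to 2.67). Leucine genes had 289 and 743, a ratio of 1.46 (1.28 to 1.68). Serine genes had 255 and 664, a ratio of 1.48 (1.28 to 1.72). The intervals of these do not overlap that of alanine, a difference within tRNA genes that no scaling of the lists changes. The order was the same at 0 h, with alanine at 0.757 (0.655 to 0.875). Leucine was then at 1.29 (1.07 to 1.57) and serine at 1.37 (1.10 to 1.71). The side of 1 at 1 h, in contrast, turned with the scaling. Over the 20 amino acids the interval lay above 1 for 8 and below 1 for alanine on whole lists. It lay above 1 for 19 and below 1 for none relative to the intergenic cDNAs, where alanine had 1.58 (1.45 to 1.73). Without the ribosomal RNA locus and the mitochondrial chromosome it lay above 1 for 5 and below 1 for 4. Copies of a tRNA gene with identical sequence could not receive uniquely mapped reads, so counts per amino acid leave such genes out.

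**Figure D4:**
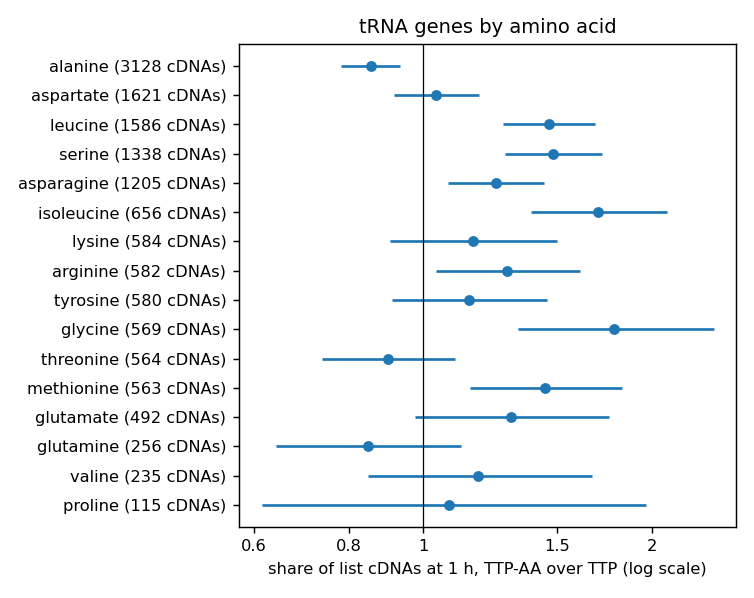
Share of list cDNAs in tRNA genes at 1 h, TTP-AA over TTP, for the amino acids with at least 100 cDNAs over all lists, on a log axis. Points are ratios of the pooled lists and bars 95% counting intervals, with alanine at 0.853, leucine at 1.46 and serine at 1.48.

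Clusters in RefSeq pseudogenes had higher ratios of TTP-AA over TTP than tRNA genes, dense clusters and the remaining clusters at each time. There were 331 such clusters, and 254 of them followed a GENCODE pseudogene end on the same strand within 1000 nt. In these cases a RefSeq pseudogene span reached past a GENCODE pseudogene end. They held 697, 225 and 61 cDNAs for TTP at 0 h, 1 h and 4 h and 1152, 1262 and 431 for TTP-AA. TTP-AA over TTP was 1.70 (1.55 to 1.87) at 0 h, 3.19 (2.77 to 3.70) at 1 h and 10.7 (8.18 to 14.2) at 4 h. The ratio at 1 h stayed above 1 under each scaling tried, from 1.51 counting each site once to 5.91 relative to the intergenic cDNAs. For 3′UTR sites, which are no members, it was 1.42 (1.36 to 1.47), 5.57 (5.45 to 5.69) and 1.68 (1.53 to 1.83) at the same times. Pseudogene clusters were found in 203 cases in the TTP-AA list at 1 h and in 55 in the TTP list.

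The pseudogene clusters with most cDNAs were chosen after their values were seen. That of Eif4a-ps4, at chr1:60705657-60705686 on the plus strand and 508 nt after the GENCODE model, held 34, 14 and 5 cDNAs for TTP at 0 h, 1 h and 4 h and 41, 44 and 37 for TTP-AA. At Gm6204, chr3:53692384-53692407 on the minus strand, the counts were 31, 14 and 0 for TTP and 42, 55 and 8 for TTP-AA. Both were higher in TTP-AA in count at each time. Next to Gm10123, at chr9:96896327-96896344 on the plus strand, TTP held 17, 0 and 0 cDNAs and TTP-AA 34, 31 and 12. With a floor of 3 cDNAs for the TTP list, the ratio at 1 h was 5.88, and its exact interval lay above 4.50. Ribosomal protein pseudogenes, identified by symbol, made up 22 clusters with 3 TTP cDNAs and 135 TTP-AA cDNAs at 1 h. The ratio was 25.6 (8.58 to 126) and rests on those 3 TTP cDNAs. At 0 h these clusters held 49 and 127 cDNAs, a ratio of 2.67 (1.91 to 3.79), and at 4 h they held 2 and 38. Rpl5-ps1 was one of them, with 0 and 28 cDNAs at 1 h, 24 nt after its GENCODE end. Reads of a pseudogene and of its parent mRNA can be told apart only where the sequences differ, so the source of these cDNAs is uncertain.

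Clusters in RefSeq lncRNA and protein-coding genes had lower shares of the TTP-AA list at 1 h. Those in lncRNA genes, whose RefSeq spans reach outside GENCODE M21 genes or are missing there, numbered 390 and had 6005 cDNAs for TTP and 3473 for TTP-AA, a ratio of 0.329 (0.316 to 0.343). The largest cluster above supplied 4361 of the 6005. In 174 clusters within RefSeq spans of protein-coding genes the counts were 634 and 552, a ratio of 0.496 (0.441 to 0.556). No RefSeq gene covered 5116 clusters, which held between 64.0% and 78.3% of the intergenic cDNAs of a list. Their ratio was 0.897 (0.870 to 0.925) at 0 h, 0.489 (0.480 to 0.498) at 1 h and 1.28 (1.24 to 1.33) at 4 h.

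Cluster by cluster, 728 intergenic clusters had at least 10 cDNAs over both 1 h lists and were compared at a threshold of 4-fold. A list with fewer than 3 cDNAs was set to 3. At least 4-fold higher in TTP-AA were 11 clusters, or 1.51%, against 15.2% of all 3367 clusters of the genome. At least 4-fold higher in TTP were 102, or 14.01%, against 7.66% of all clusters. The ratio was above 1 for 44.8% of the intergenic clusters and for 72.0% of all clusters. This split turned with the scaling, since 110 were called for TTP-AA and 11 for TTP when the lists were scaled to their intergenic cDNAs. The same scaling called 44.6% and 1.43% of all clusters, so the intergenic clusters called as higher in TTP-AA were below the share of all clusters under both scalings. Of 109 tRNA clusters compared, 72 were above 1, none was called for TTP-AA and 1 for TTP. The 36 pseudogene clusters compared had 32 above 1, with 2 called for TTP-AA. The floor and the list sizes set a different bar for each direction. A cluster with 10 TTP cDNAs and 0 TTP-AA cDNAs was called for TTP. A cluster with 21 TTP-AA cDNAs and 0 TTP cDNAs was not called for TTP-AA. The same rule held for all clusters. The split of calls between the proteins thus rests in part on this rule, and the counts describe only the clusters compared.

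The clusters furthest towards TTP-AA at 1 h were short. At chr14:87278438 on the plus strand, 67807 nt before the small nucleolar RNA gene Gm23278, 1 nucleotide held 4 cDNAs for TTP and 49 for TTP-AA, a ratio of 6.97 (2.56 to 26.6). The cluster at chr9:32014269-32014270, 52901 nt before Gm44453, held 3 and 32, a ratio of 6.07 (1.90 to 30.99). At chr14:24537693-24537695, 40734 nt after Rps24, which encodes a protein of the small ribosomal subunit, there were 3 and 30, a ratio of 5.69 (1.77 to 29.1). The cluster at chr3:108891616-108891620, 9643 nt after Gm43097, held 4 and 39, a ratio of 5.55 (2.00 to 21.4). The Gm10123 cluster completed these 5. All had wide intervals because of few cDNAs in the TTP list.

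At the other end, the cluster at chr2:22744264-22744269 on the minus strand, 18475 nt after Gm13356, held 39 cDNAs for TTP and 5 for TTP-AA, a ratio of 0.0730 (0.0224 to 0.185). Higher counts stood behind the cluster at chr5:143154696-143154706 on the minus strand, 2455 nt after the pseudogene Gm7291, with 162 and 22 cDNAs and a ratio of 0.0773 (0.0471 to 0.121). At chr15:86194902-86194917 on the plus strand, 7750 nt after Gm15569, there were 204 and 37, a ratio of 0.103 (0.0707 to 0.147). The cluster at chr9:124257577-124257627, 81352 nt before Gm47180, held 18 cDNAs in 16 sites for TTP and 0 for TTP-AA. Its ratio with the floor was 0.0949 (0 to 0.129). At chr19:40119713-40119744, 5763 nt after Cyp2c50, a cytochrome P450 gene, there were 17 and 2, with an interval of the ratio from 0.00750 to 0.282. At 4 h the same cluster held 35 cDNAs for TTP and 22 for TTP-AA.

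**Figure D5:**
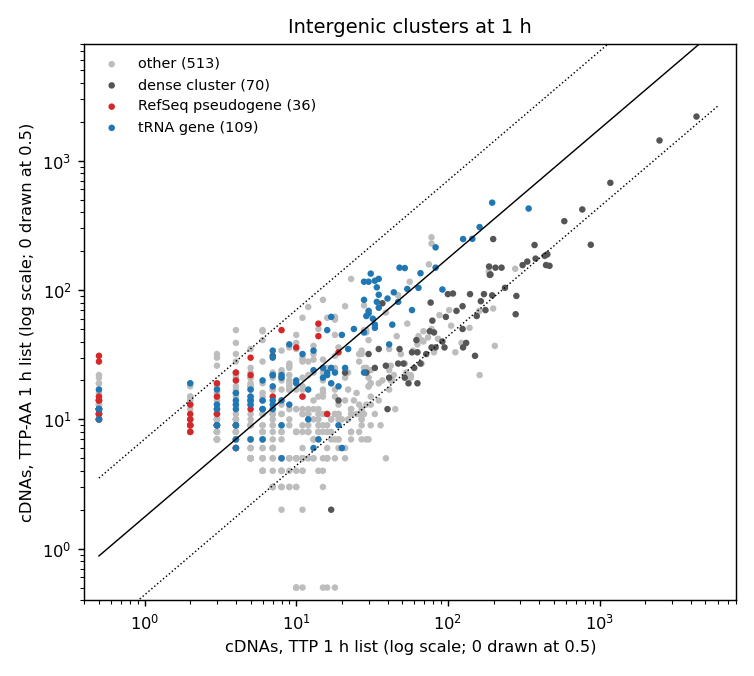
cDNAs of the 728 intergenic clusters with at least 10 cDNAs over both 1 h lists, TTP against TTP-AA, on log axes, with 1 point per cluster. The solid line is equal share of the lists and the dotted lines are 4-fold, and points near an axis may lie past a dotted line without being called because counts below 3 were set to 3. Dense clusters lie under the solid line with 2 of 70 above it, and tRNA genes lie on both sides with 72 of 109 above it.

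At 0 h, 455 intergenic clusters were compared, with 13 at least 4-fold higher in TTP-AA (2.86%, against 6.27% of all 1037 clusters) and 24 in TTP (5.27%, against 5.88%). At 4 h, 293 were compared, with 80 higher in TTP-AA (27.3%, against 25.9% of all 553) and 25 in TTP (8.53%, against 9.58%). The ratio was above 1 for 48.1% of the intergenic clusters at 0 h, against 51.0% of all clusters, and for 46.8% at 4 h, against 44.8%. Both 4 h shares of calls were near those of all clusters. The floor set a different bar for each direction at 4 h too, since the TTP-AA list held 19167 cDNAs and the TTP list 29060. A cluster with 10 TTP-AA cDNAs and no TTP cDNA was called for TTP-AA. As many TTP cDNAs without any TTP-AA cDNA were not called for TTP. The direction of the 4 h calls thus rests in part on this rule.

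Sites of both proteins often lay at the same places. Within 15 nt of a TTP-AA site on the same strand were 61.01% (59.8 to 62.2%) of the TTP sites at 0 h, 77.8% (76.8 to 78.7%) at 1 h and 68.7% (67.1 to 70.3%) at 4 h. Seen from TTP-AA, 61.3%, 60.2% and 33.0% of its sites were near a TTP site. For 3′UTR sites, 41.4%, 76.6% and 29.4% of TTP sites and 36.5%, 21.5% and 18.1% of TTP-AA sites were near one of the other protein. Over all sites that were no members, 3′UTR sites included, the shares were 51.6%, 66.3% and 57.4% for TTP. For TTP-AA they were 49.1%, 26.6% and 40.7%, so at 4 h its intergenic share of 33.0% was below that of other sites. At 1 h the TTP share was thus alike for intergenic and 3′UTR sites, while the TTP-AA share was 60.2% against 21.5%. List sizes differ, and a list with more sites covers more of the other. The values show positions of bound cDNAs and not RNA levels, so more RNA and more binding cannot be told apart.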

How the data were processed

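iCLIP libraries from 15 samples were used. Per the study's methods, the authors pulled down GFP fusions with a GFP nanobody after UV-C crosslinking, removed PCR duplicates by random barcodes, mapped unique reads to mm10 with Bowtie and kept sites with a false-discovery rate under 0.05 in iCount (100 permutations, 15 nt neighbourhood). The processing notes name Bowtie and GRCm38. The deposited values are scores: whole unique cDNA counts summed by the authors over the libraries of a group, whose sign gives the strand. The headers of both 1 h lists carry a mark on treating regions as a unit that the other headers lack. Whether the site threshold therefore differed between times was not tested, so values at 1 h and at the other times may not rest on the same threshold. No GFP-only library was analysed here.

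From the scores, sites were assigned with GENCODE M21 (55536 genes, 41478 3′UTR ends) in Python 3.11.15 (numpy 2.4.6, pandas 2.3.3, scipy 1.17.1, matplotlib 3.10.9), and clusters were named by the RefSeq gene table of GRCm38.p6, which gives no strand. A cluster took the first of tRNA, pseudogene, protein-coding and lncRNA genes that it overlapped. Coordinates are 1-based. Shares have Wilson 95% intervals, their differences Newcombe intervals and ratios exact conditional intervals. These cover counting error only. The lists held 19167 to 174397 cDNAs, so 3 cDNAs, the floor used where a list had fewer, are 0.00172% to 0.0157% of a list. Calls needed at least 10 cDNAs over both lists and a ratio of 4-fold. Scripts were tested on simulated data.

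Clusters named were the 5 largest in each list, the 5 with the highest and the 5 with the lowest ratio at 1 h past 4-fold, and the 5 largest found in all lists. A cluster that this rule names is not reported here. A further part of that rule, on clusters with AUUUA, and all soft-mask results needed a genome sequence, which was not used here, so AUUUA was searched in promoter windows alone. tRNA genes, pseudogenes, dense clusters and promoter windows were taken up after values were seen. The members and lists were chosen with earlier results of these data known.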

Additional observations from a re-analysis of the deposited data

Results flagged for a closer look

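The difference in the share of cDNAs at intergenic sites, TTP-AA minus TTP, had opposite signs at the later times. It was -15.7 percentage points at 1 h and 9.26 points at 4 h. Each protein had 1 pooled list per time, and the difference between the times was not tested. Without the ribosomal RNA locus and the mitochondrial chromosome in the denominator, the values were -28.1 and -1.54 points, so the signs were then the same.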

How the results depend on the processing

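Of 65 alternative values computed, 18 stayed within the interval (or within 1.5 times the count) of the reported value, 44 moved further and 3 changed side. Shares (TTP-AA minus TTP, in percentage points): at 0 h, -3.41 without the ribosomal RNA locus and the mitochondrial chromosome in the denominator, -0.504 with a downstream limit of 20000 nt, -2.60 without clusters in RefSeq gene spans and -2.76 for members over 5000 nt from any gene. At 1 h the same settings gave -28.1, -14.0, -14.1 and -10.1. The 1 h value was -16.7 with each site counted once, -12.2 for sites with at least 2 cDNAs, -10.3 without the 10 largest clusters and -13.7 without the largest. At 4 h these 4 settings gave 11.9, 7.55, 15.7 and 10.9, the distance setting gave 8.19, and the denominator setting changed the sign to -1.54. Settings on RefSeq spans, distance and the single largest cluster were chosen after seeing the data, as were all those on tRNA genes and pseudogenes.

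Clusters at least 4-fold higher in TTP-AA at 1 h numbered 110 when scaled to intergenic cDNAs, 105 on raw counts, 118 where the exact interval excluded 1 and 39 for sites with at least 2 cDNAs, against 11 reported. Those higher in TTP numbered 11, 14 and 65, against 102. Where the call was instead an exact interval that excluded 1, with no 4-fold threshold, 118 were higher in TTP-AA and 229 in TTP. AUUUA near TTP-AA sites was at 0% for sites with at least 2 cDNAs. TTP sites near a TTP-AA site were 33.3%, 51.1% and 33.3% at 0 h, 1 h and 4 h for the same nucleotide and 62.9%, 79.1% and 72.3% within 50 nt. The tRNA ratio at 1 h was 0.495 with each site once and 0.915 with the smaller denominator, both on the other side of 1, and 2.15 scaled to intergenic cDNAs and 1.22 without the 10 largest tRNA clusters. The pseudogene ratio was 1.51, 2.51 and 5.91 with the first 3 of these settings. The share at positions 31 to 40 was 42.4% with each site once, 53.4% without the largest tRNA gene and 76.1% for genes of at most 76 nt.

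No paired analysis was possible because each list sums the libraries of a group, and for the same reason no library was left out. Alternatives that leave out soft-masked bases, and the soft-masked share itself, were not run for want of a genome sequence here. The 4 h lists had fewest cDNAs and the widest intervals.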

Other observations

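The following tRNA groups and genes have values at other times than 1 h that are not given above. They were chosen after their values were seen. Glutamine tRNA genes held 31 TTP cDNAs and 2 TTP-AA cDNAs at 0 h, with an interval of the ratio from 0.00770 to 0.261, and 88 and 131 at 1 h, a ratio of 0.847 (0.642 to 1.12). Methionine tRNA genes held 61 TTP cDNAs and 100 TTP-AA cDNAs at 0 h, and the ratio was 1.69 (1.22 to 2.36), and 107 and 272 at 1 h, where it was 1.45 (1.15 to 1.83). The glycine tRNA gene n-TGgcc4, at chr1:171044985-171045055, had 19 TTP cDNAs and 45 TTP-AA cDNAs at 4 h, an interval of the ratio from 2.06 to 6.50. At 1 h it had 33 and 118, a ratio of 2.04 (1.37 to 3.09). Its most frequent site was position 32 with 153 of 347 cDNAs.

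Phenylalanine tRNA genes held 0 TTP cDNAs and 21 TTP-AA cDNAs at 1 h. With the floor for the TTP list the ratio was 3.98, and its exact interval lay above 2.96. Histidine tRNA genes held 6 and 21, a ratio of 1.99 (0.778 to 6.03), an interval that includes 1.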
